A study of Homo sapiens with 6 samples.

Results

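PLAG1-S occupancy was mapped by chromatin immunoprecipitation followed by sequencing in 2 clones, #4 and #5, of K562, a human chronic myelogenous leukemia cell line. Both clones overexpressed USF2 together with PLAG1-S that carried a FLAG epitope tag, and the chromatin was pulled down with an anti-FLAG antibody. The members described here are the 67463 peaks of the 2 anti-FLAG libraries, chosen by the antibody and clone named in the labels, out of 81170 peaks in the 4 lists of a series of 6 samples. Clone 4 contributed 37574 peaks and clone 5 contributed 29889. Each library was sequenced to 42.5 M single-end reads of 50 bp according to the labels, each input library to 55 M, and each list was called by the authors against the merged inputs of both clones. Each group is 1 line grown from 1 clone, every cell carried USF2 as well, and an anti-FLAG library from cells without the tagged protein was not analysed here. With 2 clones and 1 list per clone, no difference between groups could be tested, so that values are given for each clone side by side. Shares carry 95% Wilson intervals, which cover counting error only, since neighbouring peaks and the starts of 1 gene are not independent.

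PLAG1 is a zinc finger transcription factor that is active in fetal tissues and is rearranged in pleomorphic adenomas of the salivary gland. PLAG1-S is a shorter protein translated from an internal methionine. PLAG1 is known to recognise a bipartite G-rich word, a core of GAGGC or GGGGC followed some bases later by a cluster of GGG. The E-box CACGTG, also searched here, is the palindrome read by basic helix-loop-helix leucine zipper proteins, among them USF1, USF2, MYC, MAX and TFEB.

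The strongest shared promoter peaks are shown first, since their letters carry the pattern that follows. A shared peak is a clone 4 peak that overlaps a clone 5 peak by at least 1 bp, with clone 4 coordinates. The windows are RefSeq promoters on GRCh38.p14, a patch release of the build of the peak lists (hg38), and run 5′ to 3′ along the gene from 250 bases before its start to 50 after it. Capitals mark the E-box. The first 3 windows hold the highest mean fold of the 2 clones, and the window of DNMT3A, the DNA methyltransferase mutated in leukemias, is the only one of the 4 genes taken from the study (MSI2, SOCS2, DNMT3A and IGF2) with a summit in a window.
MCOLN1, chr19:7522374-7522673, plus strand: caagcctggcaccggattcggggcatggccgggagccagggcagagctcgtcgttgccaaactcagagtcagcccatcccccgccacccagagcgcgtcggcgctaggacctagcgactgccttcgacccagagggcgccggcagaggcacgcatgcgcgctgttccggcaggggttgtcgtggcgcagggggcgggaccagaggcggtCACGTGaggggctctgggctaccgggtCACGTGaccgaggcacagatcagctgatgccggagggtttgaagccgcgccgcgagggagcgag
AMDHD2, chr16:2520121-2520420, plus strand: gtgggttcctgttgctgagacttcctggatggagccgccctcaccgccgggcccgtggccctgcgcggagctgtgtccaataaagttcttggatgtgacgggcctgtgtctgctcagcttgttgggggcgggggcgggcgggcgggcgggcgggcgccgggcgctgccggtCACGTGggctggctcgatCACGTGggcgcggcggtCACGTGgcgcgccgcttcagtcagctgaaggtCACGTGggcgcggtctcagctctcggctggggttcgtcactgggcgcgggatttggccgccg
RAD9A, chr11:67391736-67392035, plus strand: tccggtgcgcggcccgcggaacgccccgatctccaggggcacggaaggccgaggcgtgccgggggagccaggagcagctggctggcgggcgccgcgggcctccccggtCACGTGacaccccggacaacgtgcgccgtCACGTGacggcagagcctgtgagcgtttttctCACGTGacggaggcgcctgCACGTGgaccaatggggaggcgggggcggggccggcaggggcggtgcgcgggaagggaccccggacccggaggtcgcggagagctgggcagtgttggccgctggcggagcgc
DNMT3A, chr2:25252266-25252565, minus strand: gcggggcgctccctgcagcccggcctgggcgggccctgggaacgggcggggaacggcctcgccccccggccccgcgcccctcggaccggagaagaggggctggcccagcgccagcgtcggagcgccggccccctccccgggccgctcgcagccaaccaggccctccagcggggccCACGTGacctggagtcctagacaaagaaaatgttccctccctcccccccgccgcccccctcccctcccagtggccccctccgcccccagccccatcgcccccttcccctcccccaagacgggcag

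MCOLN1 encodes mucolipin-1, a calcium channel of the lysosome. The 2 E-boxes of its window bracket the summit, which lay 30 bp upstream of the start and 8.5 bp from the middle of the nearer one. AMDHD2, an enzyme that deacetylates N-acetylglucosamine-6-phosphate, held 4 E-boxes, and its summit lay 6.5 bp from the nearest. In the window of RAD9A, a subunit of the 9-1-1 clamp of the DNA damage checkpoint, there were also 4, with the summit 0.50 bp from the middle of 1 of them. DNMT3A held 1 E-box, 16 bp from the summit.

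Short stretches of 30 bases around the E-box nearest to the summit are given for 6 further genes among the 10 with the strongest shared peak at a start.
BAX, chr19:48954818-48954847, plus strand: ttgcggggcggcCACGTGaaggacgcacgt
RCBTB1, chr13:49585571-49585600, minus strand: ggcggccggggcCACGTGacccggcgggcc
LAMP1, chr13:113297085-113297114, plus strand: gccgctgcgggtCACGTGtcggcctgcatc
AP5Z1, chr7:4775574-4775603, plus strand: catgtgatgcggCACGTGacgcagccacgt
ATP6V0D1, chr16:67481199-67481228, minus strand: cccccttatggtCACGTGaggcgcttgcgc
SPPL3, chr12:120904406-120904435, minus strand: cggggcgcgcatCACGTGagcgtgttttgg

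BAX promotes cell death at the mitochondrion, LAMP1 is a membrane protein of the lysosome, ATP6V0D1 is a subunit of the proton pump that acidifies it, AP5Z1 belongs to an adaptor complex of late endosomes, and SPPL3 is an intramembrane protease. In all 6 the summit lay between 0.50 and 8.5 bp from the middle of the E-box shown. The remaining gene, GTPBP6, had its summit 268 bp upstream of its start, outside the window. GTPBP6 lies in the pseudoautosomal region, whose near-identical copies on X and Y make the placement of its reads uncertain.

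The fold of a peak is the authors' enrichment at the summit over the local background. The peak at MCOLN1 had a fold of 57.5 in clone 4 and 55.5 in clone 5. AMDHD2 reached 58.9 and 53.7, RAD9A 61.8 and 48.4, BAX 53.5 and 51.0, and RCBTB1 54.0 and 50.0. At LAMP1 the fold was 50.6 in clone 4 and 52.2 in clone 5, at ATP6V0D1 53.2 and 47.0, at GTPBP6 50.4 and 46.6, and at SPPL3 50.5 and 46.1. AP5Z1 held the highest fold of the clone 4 list, 64.2, and ranked only 39 in clone 5 with 40.1. The other 9 ranked between 2 and 18 in clone 4 and between 3 and 18 in clone 5. These summits were covered by 204 to 279 fragments in clone 4 and by 179 to 244 in clone 5, whereas over all peaks the quartiles were 19 and 35 fragments in clone 4 and 18 and 32 in clone 5. These 10 peaks were chosen by mean log2 fold over both clones, so that their high ranks and fragment numbers follow from the choice.

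The E-box was far more frequent in promoter windows with a PLAG1-S summit than in windows without one, and the G-rich word was not once base composition was held. A shared summit lay in 3427 of the 22198 windows of protein-coding genes, or 15.4%. Of those 3427 windows 34.4% (32.9 to 36.0) held CACGTG, against 3.57% (3.32 to 3.85) of the other 18771. In clone 4 alone the shares were 29.2% and 3.39%, and in clone 5 alone 32.0% and 3.68%. Counting every window that any part of a shared peak touched lowered the share of E-box windows to 20.2%. ACCGGT, a palindrome with the same base composition, was found in 2.68% (2.19 to 3.28) of the windows with a summit and 1.87% (1.69 to 2.07) of those without. Read the other way, 63.7% (61.5 to 65.9) of the 1851 windows with an E-box held a shared summit, against 11% (10.6 to 11.5) of the 20347 windows without. Windows of long noncoding RNA (lncRNA) genes showed the same order, with an E-box in 31.1% (27.9 to 34.6) of 745 windows with a summit and 3.82% (3.49 to 4.18) of 12172 without. The 2 sets are not separate, since 1 peak can lie in windows of both. Of 1767 lncRNA genes with a shared summit within 1 kb, 1114 started within 1 kb of a coding start.

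The G-rich word was searched on both strands as GAGGC or GGGGC, a gap of 6 to 8 bases, and GGG, with overlaps allowed. It was found in 55.3% (53.6 to 56.9) of windows with a shared summit, in 35.5% (34.8 to 36.2) of windows without, and in 38.6% of all. A comparison word of the same letters, CGGAG or CGGGG with the same gap and GGG, gave 52.2% (50.5 to 53.8) and 30.7% (30.0 to 31.3). Windows with a shared summit were richer in G and C, with a median GC content of 69.7% against 60.7%, and a shared summit lay in 1.04% of the 20% of windows with the lowest GC content and in 30.9% of the 20% with the highest. Within 5 such bins of GC content the G-rich word occurred in similar shares of windows with and without a summit, such as 51.7% (48.6 to 54.7) and 53.7% (52.0 to 55.4) in the bin of 65.3 to 72% GC and 75.7% (73.4 to 77.9) and 74.8% (73.3 to 76.3) in the highest. The E-box stayed apart in all 5 bins. In the lowest it was found in 65.2% (50.8 to 77.3) of the 46 windows with a summit and 2.64% (2.21 to 3.16) of the others, and in the highest in 24.9% (22.6 to 27.2) and 2.90% (2.36 to 3.56).

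Summits lay on the E-box itself. Of the 3058 shared peaks with the summit in a coding window, 1038 had an E-box there, and the median distance from the summit to the middle of the nearest one was 9.5 bp, with quartiles of 4.50 and 20.5 bp. In 79.4% (76.8 to 81.7) of these peaks the distance was at most 25 bp. For the 1710 peaks with a G-rich word the median was 47.5 bp and 31.2% (29.0 to 33.4) were within 25 bp, and for its comparison word the values were 49.5 bp and 28.3% (26.2 to 30.6). In clone 4 and clone 5 taken alone the median distance to the E-box was 9.5 and 10.5 bp.

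Occupancy differed with the bases beside the E-box and with the number of E-boxes. Both flanking bases lay inside the window for 1844 windows, of which 1656 held 1 E-box. Among these 1656, TCACGTGA, with T before the E-box on both strands, occurred in 210 windows, and 83.3% (77.7 to 87.8) of them held a shared summit. With T on 1 strand the share was 69.6% (65.9 to 73.1) of 625 windows, and with T on neither 50.8% (47.4 to 54.2) of 821. The median fold of the peaks followed the same order, with 21.8, 19.6 and 11.1 in clone 4 and 17.6, 15.6 and 9.27 in clone 5. Windows with 2 or more E-boxes held a summit in 80.3% (74.1 to 85.4) of 188, with a median fold of 32.1 in clone 4 and 26.3 in clone 5, against 62% (59.7 to 64.3) of the 1656 windows with 1, where the medians were 16.2 and 12.3. The split by flanking base and by number of E-boxes was made after the shares above were known.

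Peak strength moved with the E-box and not with the G-rich word. Among clone 4 peaks with the summit in a coding window, the 10% with the lowest fold held an E-box in 3.95% and the 10% with the highest in 91.6%, and in clone 5 the shares were 7.93% and 92.4%. The G-rich word was found in 54.5% and 51.1% of the same peaks in clone 4 and in 54.0% and 53.8% in clone 5. Among shared peaks with an E-box the median fold was 16.9 in clone 4 and 13.4 in clone 5, and among those without it was 6.06 and 5.65. A G-rich word in the window made little difference to either, with a median clone 4 fold of 17.9 with both words and 16.3 with the E-box alone. The cells also overexpressed USF2, an E-box reader, and its part in these anti-FLAG peaks was not tested.

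Strong peaks without an E-box in the window were few, and the strongest was at FIZ1, which encodes a zinc finger protein. It ranked 52 among the 3058 shared window peaks, so that every peak above it had an E-box, with a fold of 41.2 in clone 4 and 34.9 in clone 5. ADPGK, the ADP-dependent glucokinase, followed at rank 58 with 38.4 and 36.5, and SEPTIN6, a filament-forming GTPase, at rank 116 with 33.2 and 31.4. The window of FIZ1 is shown for contrast with those above. It holds 1 G-rich word, in capitals, read on the opposite strand. The word lies in the 5′ part of the window, far from the summit at base 259, which lay 8 bp after the gene start.
FIZ1, chr19:55599468-55599767, minus strand: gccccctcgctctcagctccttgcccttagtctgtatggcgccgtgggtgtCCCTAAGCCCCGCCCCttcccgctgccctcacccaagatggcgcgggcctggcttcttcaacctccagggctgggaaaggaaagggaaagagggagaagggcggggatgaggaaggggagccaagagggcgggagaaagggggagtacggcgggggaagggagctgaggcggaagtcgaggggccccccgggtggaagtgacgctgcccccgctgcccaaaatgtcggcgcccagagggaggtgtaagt

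Peaks were narrow, and about 3 in 5 clone 4 peaks recurred in clone 5. On chromosomes 1 to 22, X and Y clone 4 had 37335 peaks and clone 5 had 29613, of which 21332 clone 4 peaks (57.1%) and 21567 clone 5 peaks (72.8%) overlapped a peak of the other clone. Limiting both lists to a −log10 q of at least 10 left 9620 shared peaks. The median width was 270 bp in clone 4 and 261 bp in clone 5, with 159 and 156 bp for the narrowest peak, and 353 bp (quartiles 256 and 522) for shared peaks. Peaks of clone 4 alone were 210 bp wide at the median and those of clone 5 alone 200 bp, with median folds of 4.50 and 4.23 against 6.40 for shared peaks. Width and recurrence moved together, so that 21.7% (20.4 to 23) of the narrowest 10% of clone 4 peaks, at most 170 bp wide, were found again in clone 5, and 97.7% (97.2 to 98.2) of the widest 10%, at least 621 bp wide. In clone 5 the corresponding shares were 45.0% (43.2 to 46.8) and 97.9% (97.3 to 98.3).

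Summits sat in the middle of their peaks, at 49.6% of the width at the median in clone 4 and 49.2% in clone 5. The summits of a shared peak in the 2 clones lay 32 bp apart at the median, with quartiles of 13 and 78 bp, and this distance shrank from 65 bp in the weakest 10% of shared peaks to 11 bp in the strongest 10%. The log2 fold was lower in clone 5 than in clone 4 by a median of 0.17, with a standard deviation of 0.45 over peaks, and lower at 66.5% of them. Over the 21332 shared peaks, which come from the same merged inputs, Pearson's r of the log2 fold between clones was 0.82 and Spearman's rho 0.73.

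Gene starts held a large share of the peaks, with summits just upstream of the start and on both sides of it. A shared summit lay within 1 kb of a RefSeq start in 39.9% (39.2 to 40.5) of the 20550 shared peaks on the chromosomes with starts, which are all but chromosome 8. The share was 30.5% (30.0 to 31.0) in clone 4 and 35.5% (35.0 to 36.1) in clone 5, and 18.0% (17.4 to 18.6) and 23.3% (22.4 to 24.3) among peaks of 1 clone alone. A further 39.6% of shared summits lay inside a gene away from the starts used and 20.5% between genes. On these chromosomes 3477 coding genes had no entry among the starts, so that peaks at their starts can fall in these groups. Within 1 kb the median distance to the start was 181 bp, 60.3% of summits lay within 250 bp and 47.1% lay upstream. Peaks of clone 5 alone stood further into the gene, with 32.4% upstream and a median position 152 bp downstream, against 43.7% and 53 bp for peaks of clone 4 alone.

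**Figure D1:**
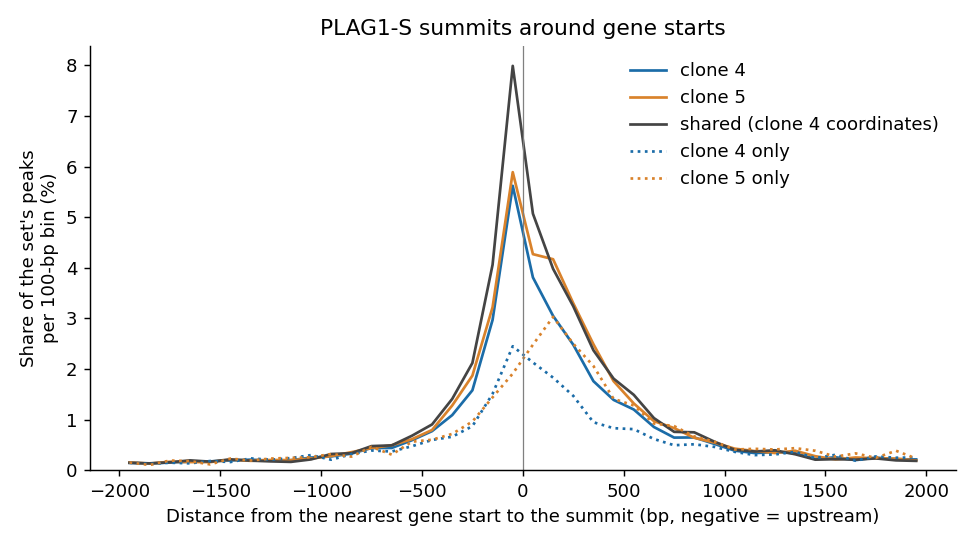
Share of each set's PLAG1-S peaks (y axis, % per bin of 100 bp) by the signed distance of the summit from the nearest gene start (x axis, bp, negative upstream), for each clone, for shared peaks and for peaks of 1 clone alone. The shared line is highest in the bin just upstream of the start, and the clone 5 only line is highest downstream of it, with a median position of 152 bp.

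Peaks at the starts used were wider than the other peaks and differed little from them in fold. The median width of shared peaks was 430 bp at starts, 319 bp inside genes and 329 bp between genes, and the median clone 4 fold was 6.28, 6.30 and 6.87. Over all peaks of a clone the folds were 5.36, 5.05 and 5.27 in clone 4 and 5.28, 4.84 and 5.04 in clone 5, highest at starts. Ranked by the mean log2 fold of the clones, only the strongest 10% stood out, where 56.0% (53.9 to 58.1) of summits lay within 1 kb of a start, against 32.5% (30.5 to 34.5) to 42.2% (40.1 to 44.4) in the other 9 bins of 10%. The distance to the start in the strongest bin was 92 bp at the median, against 171 to 227 bp in the others.

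PLAG1-S lay at the start of 6539 of the 15842 protein-coding genes with a RefSeq start, or 41.3% (40.5 to 42.0), in both clones. Clone 4 alone gave 49.5% and clone 5 alone 47.1%, and with a −log10 q of at least 10 the share fell to 23.5%. A head-to-head gene pair, with 2 coding starts pointing away from each other within 1 kb, was occupied more often than a single start. In such pairs 58.1% (55.9 to 60.3) of 1946 genes held a shared summit within 1 kb, against 38.9% (38.1 to 39.7) of the other 13896, and 1 summit can serve both genes of a pair. The order was the same in clone 4, with 71.1% and 46.5%, and in clone 5, with 65.4% and 44.5%. Of the 11462 lncRNA genes 15.4% (14.8 to 16.1) had a shared summit within 1 kb, which was 52.0% (49.8 to 54.1) of the 2144 whose start lay within 1 kb of a coding start and 7.01% (6.51 to 7.54) of the remaining 9318.

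Small RNA genes were taken as the gene widened by 1 kb on either side, since starts were not used for them. A shared summit lay there for 27.1% (23.2 to 31.4) of 443 tRNA genes, 9.74% (5.99 to 15.4) of 154 snRNA genes, 10.6% (9.26 to 12) of 1913 miRNA genes and 3.67% (2.74 to 4.89) of 1199 snoRNA genes. In clone 4 and clone 5 the tRNA genes reached 38.1% and 31.2%. Pseudogenes, which are longer, held one in 1.94% (1.73 to 2.17) of 15580. Genes of these classes occur in near-identical copies, between which 50-bp reads cannot always be placed.

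Among 22 gene families, lysosomal genes held PLAG1-S at their starts most often and with high folds. Genes for lysosomal hydrolases and membrane proteins with a start numbered 29. Of these 23, or 79.3% (61.6 to 90.2), had a shared summit within 1 kb of it, beside 41.3% of all protein-coding genes. Their median mean log2 fold was 4.14, against 2.71 for all coding genes with a shared summit. MCOLN1 and LAMP1 were described above. GAA, the acid alpha-glucosidase missing in Pompe disease, had folds of 47.6 in clone 4 and 47.5 in clone 5, and CTSD, the protease cathepsin D, 38.7 and 37.3. The lowest were ARSB, CTSC and CTSH, with 5.34 and 6.69, 7.44 and 3.95, and 2.74 and 5.04. Of the 29, those without a shared summit were FUCA1, CTSL, LIPA, NPC2, NPC1 and IDS. Another 16 genes of the family had no start, and 12 of them held a shared summit in the gene widened by 1 kb. By that measure 50.8% of all coding genes held none. An E-box was in a window of 10 of the 29 genes, and all 10 had a shared summit, as did 13 of the 19 without. Among all coding genes with a start, 10.9% had an E-box. A shared summit lay at 74.8% of those with an E-box and 37.2% of those without.

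The V-ATPase pumps protons into lysosomes, and 10 of its 15 genes with a start, or 66.7% (41.7 to 84.8), held a shared summit in both clones, with the highest median mean log2 fold of the 22 families, 4.53. ATP6V0B followed ATP6V0D1 with folds of 39.0 and 35.6. ATP6V1G1 had 28.4 and 23.3, ATP6V0E2 28.2 and 22.8, and ATP6V1E1 30.4 and 20.5. The 5 genes without one were ATP6V1G3, ATP6V1C2, ATP6V1B1, ATP6V1G2 and ATP6V0A4, subunit forms known mostly from kidney or brain. Core autophagy genes form the vesicles that deliver cargo to lysosomes. They stood at 53.1% (36.4 to 69.1) of 32, an interval that contains the 41.3% of all coding genes. ATG3, the conjugating enzyme for LC3, had folds of 49.5 and 41.1, GABARAP 30.8 and 22.5 and NRBF2 23.6 and 19. The other 14 genes with a shared summit had clone 4 folds between 4.48 and 19.7.

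Initiation factors and ribosomal proteins were above the share of all coding genes, with different folds. Translation initiation factors reached 72.3% (58.2 to 83.1) of 47 genes, led by EIF4G1, the scaffold of the cap-binding complex, with folds of 43.2 and 37.1, and by EIF5A2 with 37.4 and 23.1. This family was taken by gene symbol and also holds regulators of these factors, such as EIF2AK4 and EIF4EBP3. Cytosolic ribosomal proteins reached 58.0% (46.2 to 68.9) of 69, with RPL13A at 23.3 and 22 and RPS28 at 20.9 and 15.6, and mitochondrial ribosomal proteins 59.4% (47.6 to 70.2) of 69, with MRPS18C at 37.0 and 25.1 and MRPS2 at 19.5 and 16.4. The median mean log2 fold was 2.96 for initiation factors, 2.57 for cytosolic and 2.64 for mitochondrial ribosomal proteins. The summit of RPS28 is also that of its divergent neighbour NDUFA7. Cytosolic aminoacyl-tRNA synthetases held one at 8 of 16 genes, a share of 50.0% (28.0 to 72.0) whose interval contains that of all coding genes, led by FARSA with 11.1 and 7.69 and AARS1 with 8.27 and 9.69. Proteasome subunits held one at 17 of 34, with an interval of 34.1 to 65.9% that also contains it, led by PSMB3 with 24.7 and 20.1 and PSMD9 with 17.2 and 13.2, and fell below the share of all coding genes when a −log10 q of at least 10 was asked of both. Respiratory chain and ATP synthase subunits reached 55.2% (43.4 to 66.5) of 67, led by NDUFA7 and by ATP5PB with 19.2 and 14.9.

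Cell cycle genes stood above the share of all coding genes, and growth and blood genes less clearly so. Cyclins, cyclin-dependent kinases and their inhibitors reached 69.0% (54.0 to 80.9) of 42 genes. CDK4, the kinase that works with D-type cyclins, had folds of 49.6 and 44.9, and CDKN2C, an inhibitor of that kinase, 39.7 and 35.3. In IGF and insulin signalling 64.3% (38.8 to 83.7) of 14 genes held a shared summit, led by IGF2R, the receptor that clears IGF2, with 42.9 and 34.8, and by the adaptor IRS1 with 13.2 and 12.2. Blood transcription factors stood at 61.9% (40.9 to 79.2) of 21, led by CEBPA, a factor of myeloid cells, with 31.8 and 30.7 and by LYL1 with 25.7 and 25.6. The intervals of these last 2 families contain the 41.3% of all coding genes. No window of these 21 genes held an E-box, which 10.9% of all coding genes with a start had in a window. TAL1 had 8.57 and 9.20 and KLF1 5.51 and 3.69, and GATA1, RUNX1 and BCL11A had no shared summit within 1 kb.

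At the starts used, families of sensory, epithelial and developmental genes were below the share of all coding genes. Olfactory receptors held a shared summit at 2 of 314 genes, OR1F1 with folds of 6.67 and 6.86 and OR2L13 with 5.13 and 5.92. Keratins and keratin-associated proteins held one at 1 of 114, KRTAP17-1 with 6.85 and 5.00, and the protocadherin clusters at 0 of 47, which allows a share of up to 7.56% by the Wilson interval. WNT ligands and frizzled receptors stood at 28.6% (13.8 to 50.0) of 21, with 28.6% in clone 4, 42.9% in clone 5 and 14.3% with 50% reciprocal overlap, led by WNT2B with 8.13 and 8.08 and FZD9 with 9.60 and 6.81. HOX genes stood at 25% (11.2 to 46.9) of the 20 with a start, with 45.0% in clone 4 and 35.0% in clone 5. They were led by HOXD10 with 14.7 and 8.33 and HOXD13 with 6.98 and 9.13. The intervals of the WNT and HOX families contain the 41.3% of all coding genes. Genes without a start were read as the gene widened by 1 kb. There 13 of 19 HOX, 3 of 8 WNT or frizzled and 5 of 35 keratin genes held a shared summit. Olfactory receptors held one at 0 of 78 and protocadherins at 0 of 6. Of all coding genes so widened, 50.8% held none. Of 9 HOX genes with an E-box in a window 4 held a shared summit, and of the 11 without 1 did. Among olfactory receptors it was 1 of 6 with an E-box and 1 of 308 without. The shares for all coding genes with a start were 74.8% with an E-box and 37.2% without.

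Zinc finger (ZNF) genes, many of which repress transposable elements, differed by chromosome. On chromosome 19, where they lie in tandem clusters, 31.5% (25.7 to 38.0) of 216 held a shared summit, and elsewhere 57.0% (50.3 to 63.5) of 214. ZNF837 and ZNF507 led on chromosome 19 with 36.8 and 35.7 and with 34.7 and 30.9, and ZNF292 and ZNF318 elsewhere with 29.5 and 36.3 and with 33.9 and 31.1. Replication-dependent histone genes, in near-identical copies, stood at 38.1% (27.1 to 50.4) of 63, and were above the share of all coding genes in 4 of 8 other settings, among them each clone alone. Their folds were low, with a median mean log2 of 2.22 and 8.10 and 8.92 at the summit that served both H2AC25 and H2BC26, inside the former. Of the globins and of the growth factors linked to PLAG1 in earlier work only 2 genes each had a start, with no shared summit within 1 kb of it. The others were read as the gene widened by 1 kb. A shared summit lay there for 4 of 8 globins and 4 of 4 growth factors. Of all coding genes so widened, 50.8% held none.

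The genes discussed in the study each held PLAG1-S in both clones. MSI2, which encodes the RNA-binding protein Musashi-2, had 2 shared peaks in the gene widened by 1 kb on either side. The first had its summit 470 bp downstream of the start, with folds of 17.9 in clone 4 and 13.4 in clone 5, and the second, deep in the gene, had 23.2 and 21.9. SOCS2, a suppressor of cytokine signalling, had 3, the strongest at chr12:93570383-93571324, inside the gene, with 39.9 and 37.7, and the others between 4.01 and 5.22 in either clone. DNMT3A had 8, led by the one 88 bp upstream of an internal start that is shown above, with 30.8 and 24.4. The other 7 had clone 4 folds between 4.22 and 16.2, and those with 16.2 and 6.85, at the start of the gene, met 1 and the same clone 5 peak of 14.2. IGF2, an imprinted growth factor and a known PLAG1 target, had 2 weak ones, with 6.06 and 5.83 and with 7.35 and 3.07. SOCS2 and IGF2 had no entry among the starts used.

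Peaks were spread thinly over genes, with a few exceptions. Of 20033 protein-coding genes widened by 1 kb, 50.8% held no shared summit, 29.3% held 1, 17.8% held 2 to 4, 1.83% held 5 to 9 and 0.295% held 10 or more. The share with 2 or more was 19.9%, against 32.3% with clone 4 alone and 26.8% with clone 5 alone, and it fell to 6.71% with a −log10 q of at least 10. Genes with more peaks were longer, with a median length of 18.1 kb at 0 peaks and 112 kb at 10 or more.

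GSE1, which encodes a coiled-coil protein of a histone demethylase complex, held 71 shared peaks over 507 kb of chromosome 16, the most of any gene, with 101 in clone 4 and 100 in clone 5. Only 6 of the 71 lay within 1 kb of a start. Their clone 4 folds ran from 3.03 to 27.7 with a median of 5.60, and the median local background, recovered from the fold and p, was 4.35 fragments, against 3.66 over all clone 4 peaks. RSPH14, beside BCR on chromosome 22, came next with 38, then PTPRN2 with 27, KCNQ1 with 26, and CAMTA1, GNAZ and LAMC3 with 24 each. GNAZ lies within RSPH14, and its 24 peaks are among the 38. RSPH14, GNAZ and LAMC3 differ from the others in their background, with medians of 16.1, 15.1 and 18.0 fragments and median folds of 3.04, 3.11 and 2.95. These 3 lie on the BCR and ABL1 sides of the chromosome 9 and 22 fusion that K562 carries in extra copies, and the part of copy number in their counts was not tested. PTPRN2, KCNQ1 and CAMTA1 stood at 4.29, 3.06 and 3.43 fragments. Among peaks with a background of at most 3 times the lowest in the list, GSE1 kept 70, and RSPH14, GNAZ and LAMC3 had 0.

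Peak density followed gene density across chromosomes. Chromosome 19 held 29.7 shared peaks per Mb, with 46.8 in clone 4 and 41.9 in clone 5, and chromosome 4 held 3.33, with 6.10 and 4.43, a ratio of 8.94. Chromosome lengths were taken as the end of the last gene. Chromosomes 22, 17 and 16 followed with 18.0, 16.1 and 15.5, and chromosome 13 and X were lowest with 1.53 and 2.20, apart from Y with 2 shared peaks in all. Over the 23 chromosomes without Y, Spearman's rho between shared peaks and coding genes per Mb was 0.84, as a description. Per coding gene, chromosome 22 held the most, 2.03, followed by chromosome 21 with 1.74 and 16 with 1.64, and X the fewest apart from Y, 0.406. The median background of shared peaks was 7.51 fragments on chromosome 22, the highest, and 2.80 to 4.53 on the others, and its median fold of 5.01 was the lowest.

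**Figure D2:**
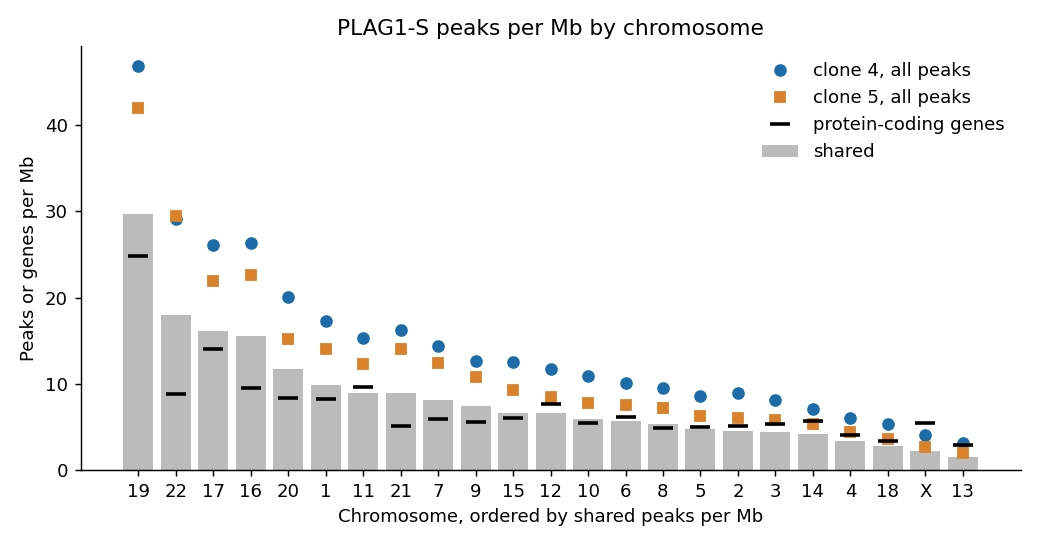
PLAG1-S peaks per Mb on chromosomes 1 to 22 and X, ordered by shared peaks. Bars start at 0 and show shared peaks, points all peaks of each clone, and dashes the protein-coding genes per Mb. Chromosome 19 is highest with 29.7 shared peaks per Mb, chromosome 22 stands at 18.0 against 8.88 coding genes per Mb, and X at 2.20 against 5.43.

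At strong promoter peaks 1.73% differed between the clones by a factor of at least 2. Of 1904 peaks that were the strongest shared peak within 1 kb of the start of a coding gene, with a fold of at least 10 in at least 1 clone, 28 were lower and 5 higher in clone 5 by that factor. Strong peaks had lower folds in clone 5 in general. In the strongest 10% of shared peaks the median fold was 20.8 in clone 4 and 16.5 in clone 5. The part of this offset in the counts was not tested. The largest difference was at RHEB, the GTPase that activates mTORC1, with 9.38 in clone 4 and 31.4 in clone 5 and with 104 and 247 fragments. RWDD1 had 13.3 and 4.12, GOLGA8O 11.8 and 3.78, KLHL21 3.78 and 11, and SMIM30 10.3 and 3.66. At KLHL21 the summits of the clones lay 439 bp apart and the clone 4 peak was 174 bp wide. Its folds were thus read at different positions, and such a pair was kept in the counts above. At the other genes of this group the summits lay 9 to 76 bp apart. The strongest clone 4 peaks at coding starts without any overlap in clone 5 were at EZR with a fold of 10.7, PTBP2 with 10.3, USP22 with 10.0, MAGEA2B with 9.75 and TRIM73 with 9.61. In clone 5 alone they were at HERC2 with 12.5, ARHGAP45 with 8.60, GOLGA8Q with 7.5, TRIM74 with 7.28 and NOTCH2NLC with 7.24. The nearest peak of the other clone lay 463 bp away at EZR, 581 bp at USP22 and 1487806 bp at PTBP2. MAGEA2B, TRIM73, TRIM74, HERC2, NOTCH2NLC, GOLGA8O and GOLGA8Q belong to segmental duplications or to families of near-identical copies, so that the placement of 50-bp reads among the copies is uncertain there.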

How the data were processed

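Anti-FLAG chromatin from 2 K562 clones was sequenced to 42.5 M reads of 50 bp per library, per the labels. The submitters' processing notes name FastQC, cutadapt, HISAT2 2.0.4, SAMtools, MACS2, bedtools and HOMER on GRCh38 (hg38). The authors called peaks in each library separately against the merged inputs. The fold deposited by the authors is a ratio of the summit pileup to the local background. The files also hold −log10 p and −log10 q as deposited, from the Poisson model of the peak caller, with a loosest q-value of 0.0099 in clone 4 and 0.0086 in clone 5. In the deposited lists the score equals −log10 q multiplied by 10 and cut to a whole number in 100.0% of peaks. The lists end at these thresholds, so that peaks absent from one clone may lie just under them.

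Peaks on chromosomes 1 to 22, X and Y were used. From fold and p, the number of fragments at each summit and the background under it were solved for, within 0.001 of the listed −log10 p, which succeeded at 100.0% of peaks (11 to 295 fragments in clone 4, 11 to 286 in clone 5). Overlap, nearest start and recovery were tested on simulated data. Gene intervals and the promoter windows (22198 coding, 12917 lncRNA) come from RefSeq (GRCh38.p14). The starts leave out chromosome 8 and cover 15842 of 20033 coding genes and 11462 lncRNA genes. Families are symbol lists, and all shares, medians and intervals are descriptions. No test across clones was made.

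Members, families and words were chosen with earlier results of these data known. Named genes were those nearest to the 10 strongest shared peaks at coding starts, the 5 with most peaks (with ties), the 2 strongest of each family, MSI2, SOCS2, DNMT3A and IGF2, the 5 strongest of each clone alone, and the 5 with the largest difference between clones. Other family members, FIZ1, ADPGK, SEPTIN6, BCR and ABL1 were chosen after their values were seen. The alternatives tried were −log10 q of 10 or more, 50% reciprocal overlap, clone 5 coordinates, each clone alone, 500 bp or 3 kb around starts, coding starts only, any part of the peak, autosomes only and, chosen after seeing the data, low background only, 1 window per gene and lncRNA windows. Python 3.11.15, numpy 2.4.6, pandas 2.3.3, scipy 1.17.1 and matplotlib 3.10.9 were used.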

Additional observations from a re-analysis of the deposited data

Results flagged for a closer look

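PLAG1-S peaks were also called outside chromosomes 1 to 22, X and Y, on unplaced sequences and the mitochondrial genome, which no comparison above used. There were 239 of them in clone 4 (0.636% of its list), of which 10 were mitochondrial, and 276 in clone 5 (0.923%), of which 12 were. Their median fold was 4.21 in clone 4 and 4.12 in clone 5, with highest folds of 22.3 and 15.8. They were called against the merged inputs like all other peaks.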

How the results depend on the processing

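With a −log10 q of at least 10 in both clones, 9620 peaks were shared, with a median width of 484 bp, a summit within 1 kb of the start of 23.5% of coding genes, a median distance of 146 bp, 6.71% of coding genes with 2 or more peaks and an E-box in 49.6% of windows with a summit. Asking 50% reciprocal overlap gave 34.3% of coding genes, 167 bp, 14.5% of genes with 2 or more peaks and 39.6% of windows. In clone 5 coordinates 72.8% of peaks were shared, the median width was 302 bp and the distance 189 bp. Leaving out either clone, with no overlap asked, gave a width of 261 to 270 bp, 30.5 to 35.5% of summits within 1 kb of a start, 47.1 to 49.5% of coding genes, a distance of 195 to 205 bp, 26.8 to 32.3% of genes with 2 or more peaks, a ratio of chromosome 19 to 4 of 7.67 to 9.45 and an E-box in 29.2 to 32.0% of windows. Within 500 bp of a start lay 33.0% of shared summits, at 37.0% of coding genes, and within 3 kb 47.3%, at 44.3%. With coding starts only the share was 36.3% and the distance 191 bp. Any part of the peak in place of the summit gave an E-box in 20.2% of windows, and lncRNA windows gave 31.1%. The causes of these shifts were not tested, beyond the fewer peaks that a stricter q leaves. Of the 22 families, 18 stayed on the same side of the share of all coding genes in all 8 settings tried. The exceptions were proteasome subunits, histones, globins and the growth factors linked to PLAG1. Leaving out high background, an alternative added after seeing the data, gave 19.5% of genes with 2 or more peaks and a ratio of 8.97. No paired analysis was possible because the report describes 1 group and no result comes from a test. A clone gives 1 list, so that the spread between clones rests on 2 values, and peaks near the lists' ends, with as few as 11 fragments, are the least certain.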

Other observations

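The strongest shared peaks away from the starts used matched those at promoters in fold. These starts leave out 3477 coding genes off chromosome 8, so that some of the peaks may lie at the start of a gene left out. A peak in PEPD, the peptidase that splits dipeptides ending in proline, at chr19:33391970-33392915, had folds of 60.9 in clone 4 and 59.5 in clone 5, and its summit lay 9361 bp upstream of the nearest start in the table used. Outside any protein-coding gene, chr7:875892-877105 had 60.3 and 58.6, chr7:100693436-100694943 had 54.3 and 53.9, and chr1:154558081-154559343 had 51.7 and 44.4. A peak in RAB3IL1, an exchange factor for a vesicle GTPase, 2718 bp downstream of its start, had 52.0 and 44.5. The words at these peaks were not searched.

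The ends of chromosomes with the highest coordinates held more peaks per Mb and per coding gene than the rest, which here includes the ends with the lowest coordinates. The last 5 Mb before the last gene's end, over 23 chromosomes, made up 3.80% of the length and held 13.3% of shared peaks, or 24.7 per Mb against 6.35 elsewhere. In clone 4 the densities were 40.9 and 11.2 per Mb and in clone 5 35.4 and 8.76. Coding genes stood at 12.4 and 6.36 per Mb, so that the ends held 1.98 shared peaks per coding gene and the rest 0.998. The densest 1-Mb window with an ordinary background was chr1:1000001-2000000, with 128 shared peaks. Only chr22:20000001-21000000 held more, 135, with a median background of 10.1 fragments. Shared summits lay 7747 bp from the nearest other one at the median, 21.2% had one within 1 kb, and 32.8% of 1-Mb windows held none. This split was chosen after seeing the data, and base composition was not measured outside promoter windows.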
